A study of Rattus norvegicus with 17 samples.

Results

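Ppp1r9a, Tmem26, Pi4k2a, Bod1l1, Rab27b and Mgll are 6 genes whose signal in cultured fetal rat gubernaculum was reported low at 10 nM of the hormone insulin-like 3 (Insl3) but not at 100 nM. They were chosen by that pattern on the same arrays, so their values at 10 and 100 nM are described here with no p-value. Every probe set that the platform annotation assigned to one of these genes alone was taken, which gave 10 of the 31099 probe sets on the array. Of the 14218 genes with such a probe set, these are 6. Ppp1r9a, Tmem26, Pi4k2a and Bod1l1 had 1 probe set each, Rab27b had 2 and Mgll had 4. A probe set is a group of short probes that read 1 stretch of a transcript, so a gene with several is read more than once. Where the probes of each set lie on the transcript was not used here, so a difference between probe sets is not assigned to a region.

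The gubernaculum is the fetal ligament that draws the testis towards the abdominal wall, and Insl3 is a peptide of fetal Leydig cells that acts on it through the receptor Rxfp2. Gubernacula of male Long Evans rat fetuses of gestational day 17 were cultured for 24 h in control medium. A further 24 h followed without hormone (control, 6 arrays), with 10 nM Insl3 (5 arrays) or with 100 nM Insl3 (6 arrays), and each biological replicate held 2 gubernacular bulbs. Replicates 4 and 5 at 10 nM were left out of the statistics by the submitters, who named a principal component analysis and low yields of labelled cRNA (25.66 and 33.68 µg, against 48.6 to 102.69 µg elsewhere). They are called set-aside arrays here and are described apart, and 15 arrays remained. No genotype or drug other than Insl3 is named, and pooled bulbs hold every cell type of the dissected tissue.

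The signals are GCRMA values on a log2 scale, where a difference of 1 is a factor of 2. A probe set counted as measured if it exceeded 2.28 in at least 3 of the 15 arrays. By this filter 9 of the 10 probe sets were measured, and the remaining Mgll probe set, 1375355_at, lay between 2.12 and 2.13 in all 17 arrays. The word "passed" means an adjusted p under 0.05 in limma, with Benjamini-Hochberg adjustment over all 18938 measured probe sets.

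The 6 proteins have varied roles. Ppp1r9a (neurabin) is an actin-binding scaffold that brings protein phosphatase 1 to the cytoskeleton. Pi4k2a is a membrane-bound kinase that makes phosphatidylinositol 4-phosphate on the trans-Golgi and endosomes and travels with the AP-3 sorting complex. Rab27b is a small GTPase that docks secretory granules and exosome-bearing endosomes at the plasma membrane. Mgll is the lipase that splits monoacylglycerols, including the endocannabinoid 2-arachidonoylglycerol. Bod1l1 protects stalled replication forks and is a relative of Bod1, a regulator of the phosphatase PP2A. Tmem26 is a membrane protein best known as a surface marker of beige adipocytes. Rxfp2 raises cyclic AMP in many cells, and the cyclic AMP response element is the palindrome TGACGTCA, whose shorter core is TGACG.

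Because the 6 genes were low in the same arrays, the promoters of 3 of them are shown. They are that of Pi4k2a, which holds that core, that of Mgll, whose probe sets disagreed, and that of Bod1l1. Bod1l1 was also below every control in both set-aside arrays, as were Tmem26 and Mgll on 1370831_at. Each runs 5′ to 3′ on the coding strand from 250 bases before the annotated start to 50 after it (RefSeq, rat build GRCr8), in lower case with TGACG in capitals.
Pi4k2a: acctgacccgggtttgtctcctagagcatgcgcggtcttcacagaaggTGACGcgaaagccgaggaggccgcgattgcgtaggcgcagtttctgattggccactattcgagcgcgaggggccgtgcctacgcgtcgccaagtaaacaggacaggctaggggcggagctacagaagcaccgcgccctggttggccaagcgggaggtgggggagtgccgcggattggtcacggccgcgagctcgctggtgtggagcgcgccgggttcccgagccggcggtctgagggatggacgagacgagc
Mgll: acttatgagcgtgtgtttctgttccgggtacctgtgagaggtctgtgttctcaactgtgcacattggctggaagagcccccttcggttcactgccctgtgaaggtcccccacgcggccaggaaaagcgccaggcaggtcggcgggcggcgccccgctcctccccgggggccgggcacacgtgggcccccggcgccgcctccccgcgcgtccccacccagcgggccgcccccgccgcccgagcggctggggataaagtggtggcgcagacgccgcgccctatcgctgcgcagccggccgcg
Bod1l1: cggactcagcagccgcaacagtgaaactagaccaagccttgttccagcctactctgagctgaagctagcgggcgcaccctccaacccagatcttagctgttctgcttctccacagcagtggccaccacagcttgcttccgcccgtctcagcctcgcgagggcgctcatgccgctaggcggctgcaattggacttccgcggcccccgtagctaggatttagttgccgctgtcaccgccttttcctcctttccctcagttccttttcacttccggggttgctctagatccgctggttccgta
The Pi4k2a window lies on the plus strand at chr1:250851904-250852203, inside the annotated gene (chromosome 1, 250850440 to 250878399). The Mgll window, plus strand at chr4:122749186-122749485, and the Bod1l1 window, plus strand at chr14:73320630-73320929, each straddle the first base of the annotated gene. All 6 genes matched an entry of the promoter table by symbol. The windows of Ppp1r9a, Tmem26 and Rab27b also lie inside the annotated gene, so the outer ends of these genes and of Pi4k2a were not searched. Neither strand of any of the 6 windows held TGACGTCA, which 1.83% of 33469 promoters of the same length held. TGACG, searched on both strands and contained in the palindrome, was found only in Pi4k2a, 202 bases before the start, and in 21.2% of all promoters. A match of letters is a description and does not show a bound factor.

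The Mgll probe sets differed from each other. On 1370831_at, designed on a GenBank mRNA, the controls ran from 5.63 to 6.20 with a median of 5.75. The 10 nM arrays read 3.49, 3.96 and 2.89, and the 100 nM arrays ran from 4.11 to 5.99 with a median of 5.55. Every 10 nM array was below every control and every 100 nM array. Control and 100 nM arrays overlapped, although 4 of the 6 arrays at 100 nM lay below every control. The 10 nM mean of 3.45 ± 0.54 (SD, n = 3) was 2.38 ± 0.34 (SE) below the control mean of 5.82 ± 0.24 (SD, n = 6), a 5.2-fold lower signal.

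The other measured Mgll probe sets, both designed on expressed sequence tags, did not show that drop. On 1388644_at the controls ran from 4.34 to 4.98 (median 4.49), the 10 nM arrays read 4.45, 5.01 and 4.95, and the 100 nM arrays ran from 4.10 to 5.52 (median 5.12). The groups overlapped, and the 10 nM mean was 0.25 ± 0.25 (SE) above control. On 1375247_at the controls ran from 3.37 to 3.63 (median 3.60), the 10 nM arrays read 3.14, 3.63 and 3.57, and the 100 nM arrays ran from 3.34 to 3.63 (median 3.63). These groups overlapped too, and the 10 nM difference was -0.11 ± 0.11 (SE). The 95% intervals of the 10 nM change were -3.10 to -1.66 on 1370831_at, -0.29 to 0.79 on 1388644_at and -0.33 to 0.12 on 1375247_at. The first of these put Mgll among the 6 genes, so the intervals are a description and no test of a difference between probe sets. A lower Mgll signal at 10 nM was read by 1 of the 3 probe sets. With a control mean of 4.55, 1388644_at stood well above the filter value of 2.28. On 1375247_at the control mean was lower, at 3.55, which leaves less room for a fall. The 3.63 that it read in many arrays was its highest value, and 10 nM replicate 1 read 3.14, so lower readings could show.

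Rab27b also differed between its probe sets. On 1378107_at, designed on an expressed sequence tag, the controls ran from 5.12 to 6.64 (median 6.18), the 10 nM arrays read 5.06, 3.88 and 4.02, and the 100 nM arrays ran from 5.71 to 7.49 (median 6.34). All 3 of the 10 nM arrays lay below every control and every 100 nM array, although replicate 1 at 5.06 was just under the lowest control at 5.12. The 10 nM mean of 4.32 ± 0.65 (SD, n = 3) was 1.67 ± 0.42 (SE) below the control mean of 5.99 ± 0.64 (SD, n = 6), or 3.18-fold lower. On 1370122_at, designed on the RefSeq mRNA, 5 of 6 controls and 10 nM replicate 3 all read 2.76. The other 10 nM arrays read 2.73 and 2.56, and the 100 nM arrays ran from 2.54 to 3.29. This second probe set had a 10 nM difference of -0.10 ± 0.12 (SE), close to the lower end of the scale, where a fall has little room to show.

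**Figure D1:**
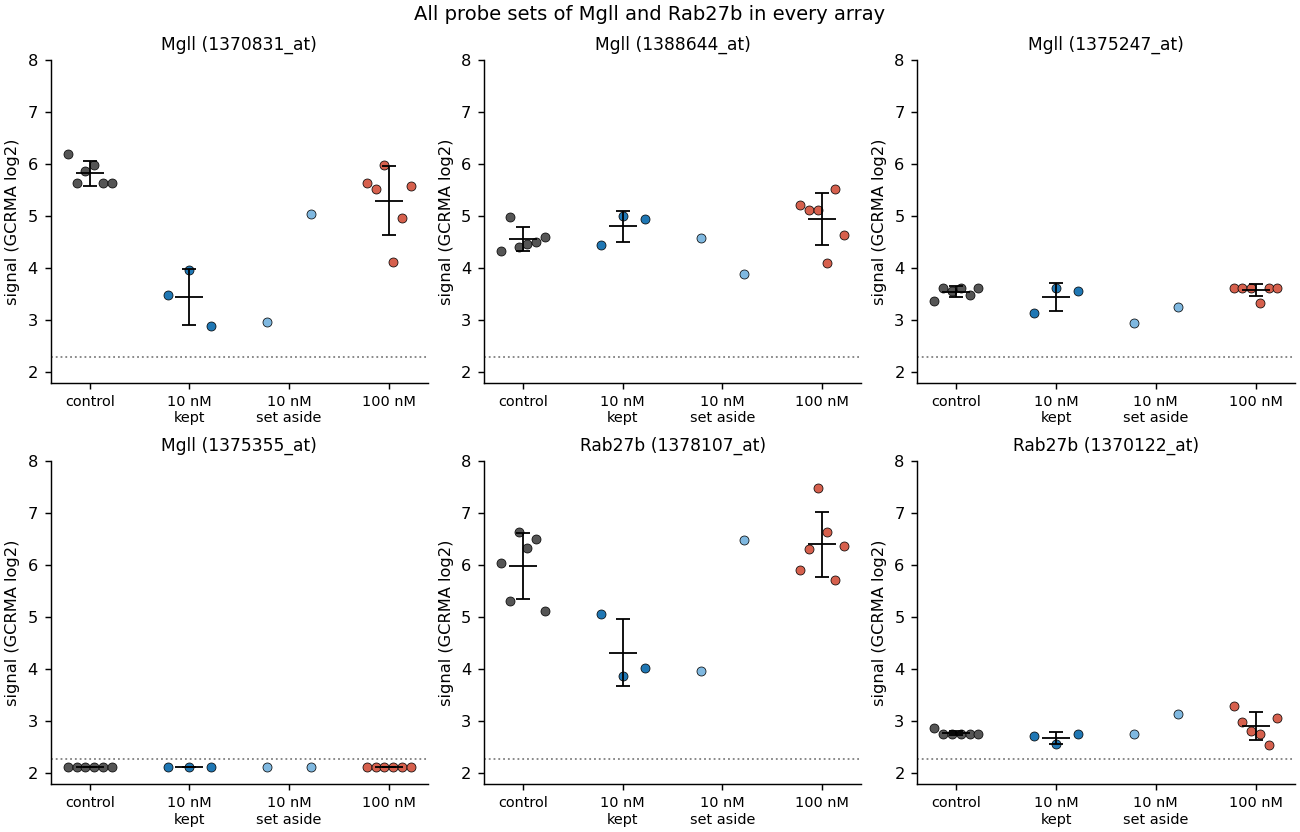
GCRMA log2 signal (vertical axis) of the 4 Mgll and 2 Rab27b probe sets in each array, by group on the horizontal axis, with mean ± SD bars for control, kept 10 nM and 100 nM and a dotted line at the filter value of 2.28. The 10 nM arrays drop away from the controls on Mgll 1370831_at and Rab27b 1378107_at, and overlap them on the other 4 panels.

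Among the genes with a single probe set, Ppp1r9a had the largest difference at 10 nM. Its controls ran from 3.33 to 5.79 (median 5.39), the 10 nM arrays read 2.44, 2.36 and 2.36, and the 100 nM arrays ran from 2.58 to 5.20 (median 4.30). All 10 nM arrays lay below every other kept array, and control replicate 6, at 3.33, stood well below the other 5 controls, which began at 5.31. The difference of means from control was -2.73 ± 0.59 (SE), or 6.65-fold lower. The 10 nM values lie just above the filter value of 2.28, near the lower end of the scale, so the fold may be compressed.

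Pi4k2a had tight controls. They ran from 6.11 to 6.91 (median 6.58), the 10 nM arrays read 4.71, 3.37 and 3.85, and the 100 nM arrays ran from 4.84 to 6.89 (median 6.71). The lowest 100 nM array was only slightly above the highest 10 nM array, and 4 of the 6 arrays at 100 nM lay within the range of the controls. The 10 nM mean was 2.57 ± 0.46 (SE) below control, or 5.93-fold lower, and the 100 nM mean was 0.34 ± 0.37 (SE) below it.

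Bod1l1 was low at both doses. Its controls ran from 4.88 to 6.04 (median 5.32), the 10 nM arrays read 3.22, 2.73 and 2.73, and the 100 nM arrays ran from 3.63 to 5.38 (median 4.22). At 100 nM, 5 of the 6 arrays lay below every control. The 10 nM mean was 2.52 ± 0.35 (SE) below control, or 5.72-fold lower, and the 100 nM mean was 1.05 ± 0.28 (SE) below it, or 2.06-fold lower.

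Tmem26 had the widest spread among controls after Ppp1r9a. They ran from 7.08 to 9.22 (median 8.14), the 10 nM arrays read 6.01, 5.54 and 4.99, and the 100 nM arrays ran from 6.02 to 8.16 (median 7.07). The highest 10 nM array, 6.01, almost met the lowest 100 nM array, 6.02, and 3 of the 6 arrays at 100 nM lay below every control. The 10 nM mean was 2.60 ± 0.48 (SE) below control, or 6.08-fold lower, and the 100 nM mean was 1.15 ± 0.39 (SE) below it.

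**Figure D2:**
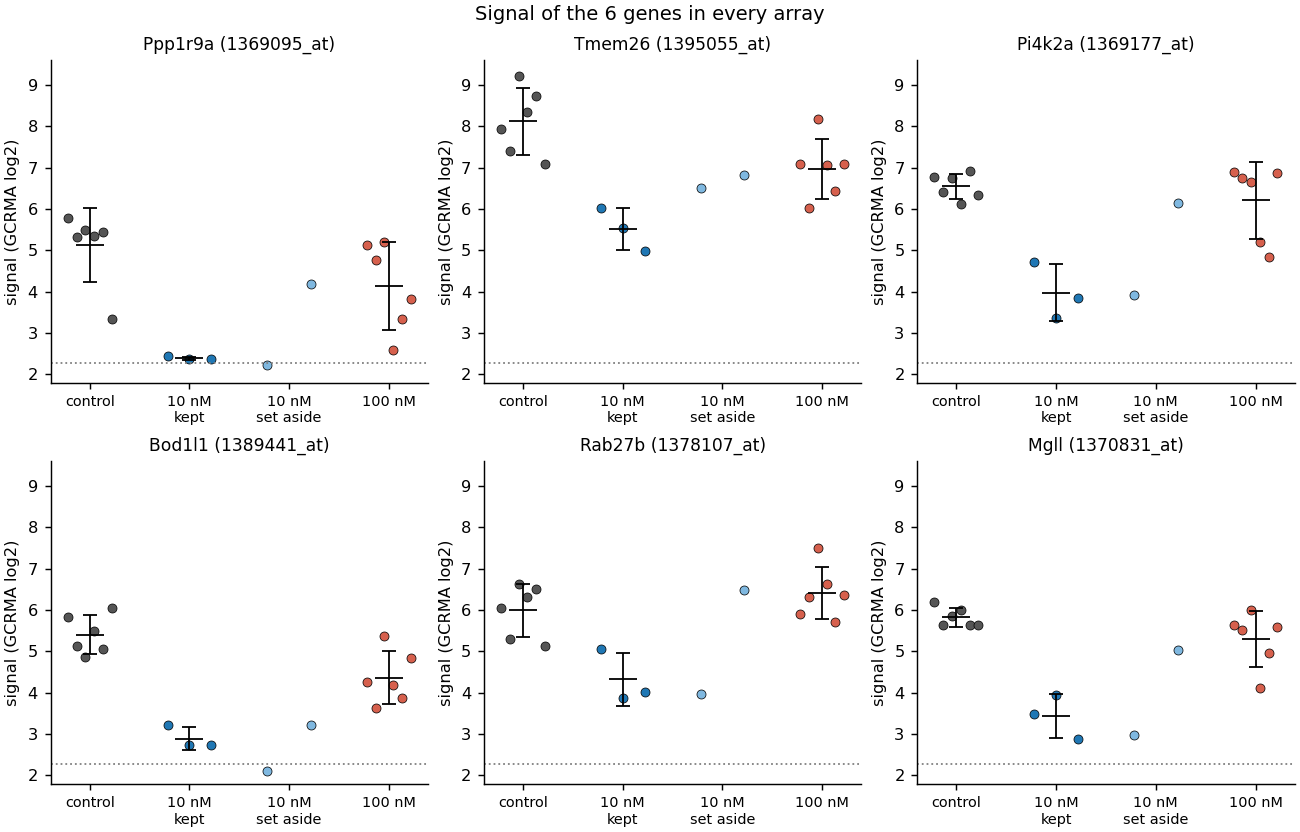
GCRMA log2 signal (vertical axis) of the probe set with the highest mean for each of the 6 genes, 1 point per array by group, with mean ± SD bars for control, kept 10 nM and 100 nM and a dotted line at the filter value of 2.28. The 3 kept 10 nM arrays lie below every control and every 100 nM array in each panel, and the set-aside arrays (light blue) lie apart from each other in most panels.

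Counted over probe sets, 6 of the 9 measured probe sets passed as lower at 10 nM than in control, where 5.7% of all 18938 did. The same 6 had every 10 nM array below every control, as did 7.81% of all probe sets, and below every 100 nM array, as did 3.84%. Since this contrast chose the genes, nothing is read from these shares. Ranked by their fall among 10665 genes with 1 probe set each, Ppp1r9a was number 3, Tmem26 number 4, Pi4k2a number 6, Bod1l1 number 7, Mgll number 9 and Rab27b number 35. Sema3d and Ano3, which are not among the 6, stood at numbers 1 and 2. Next to Rab27b, at -1.67, the following gene was Rab11fip2 at -1.65.

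The description "low at 10 nM only" held unevenly. At 100 nM against control, Bod1l1 passed as lower and the other 8 probe sets did not, where 4.39% of all probe sets passed as lower. Bod1l1 lost that call in 6 of 15 fits that each left out 1 array: control replicates 1, 4 and 6 and 100 nM replicates 2, 4 and 5, with differences of -0.90 to -1.03. These contrasts also chose the genes, so the calls below describe the choice and test nothing about the genes. At 100 nM against 10 nM, Pi4k2a (2.23 ± 0.46 SE), Rab27b on 1378107_at (2.08 ± 0.42 SE) and Mgll on 1370831_at (1.85 ± 0.34 SE) passed as higher at 100 nM, where 1.24% of all probe sets did. Ppp1r9a (1.76 ± 0.59 SE), Tmem26 (1.46 ± 0.48 SE) and Bod1l1 (1.47 ± 0.35 SE) did not pass after adjustment, although every 100 nM array read above every 10 nM array for each of them and their 95% intervals (0.49 to 3.02, 0.43 to 2.49 and 0.72 to 2.22) lay above 0. Pi4k2a, Rab27b and Mgll all lost this call without 10 nM replicate 3, a fit in which 3 probe sets in all were called between the doses. Other single arrays whose removal ended the call were control replicates 3 and 5, 10 nM replicate 2 and 100 nM replicates 1, 2, 3 and 6 for Pi4k2a. For Rab27b they were 10 nM replicate 2 and 100 nM replicates 2 and 6, and for Mgll 10 nM replicate 1 and 100 nM replicate 2. On the probe set with the highest mean of each gene, the order of the means was 10 nM, then 100 nM, then control for every gene but Rab27b, where 100 nM stood 0.41 ± 0.34 (SE) above control. Mgll 1388644_at (4.55 in control, 4.80 at 10 nM, 4.95 at 100 nM) and 1375247_at (3.55, 3.45 and 3.58) had other orders. Blood cell markers differed at 100 nM as well: against control, 7 of 9 measured erythroid genes fell (median -2.65), as did 3 of 4 granulocyte genes (median -3.01) and 4 of 10 macrophage and leukocyte genes (median -0.44). Against 10 nM the medians were -2.25, -3.26 and -0.28, and 1 erythroid gene fell and no other gene of these lists passed in limma, with 6, 3 and 3 at an unadjusted p under 0.05. Their part in the values of the 6 genes was not tested.

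The 100 nM cultures were not alike on these 6 genes. For each array, the median over the 6 genes of signal minus control mean was -0.14, -0.32, 0.10, -1.29, -1.61 and -0.40 for replicates 1 to 6. Replicates 4 and 5 had 5 and 4 of the 6 genes below every control, and replicate 3 had none. Over all measured probe sets, the share below every control was 15.4% to 19.8% in these 6 arrays, 19.8% in replicate 4 and 16.9% in replicate 5. The genes were chosen on these same controls and 100 nM arrays, so their counts are a description and nothing is read from them beside these shares. The kept 10 nM arrays had medians of -2.15, -2.63 and -2.73, so even the lowest 100 nM array stood above them.

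**Figure D3:**
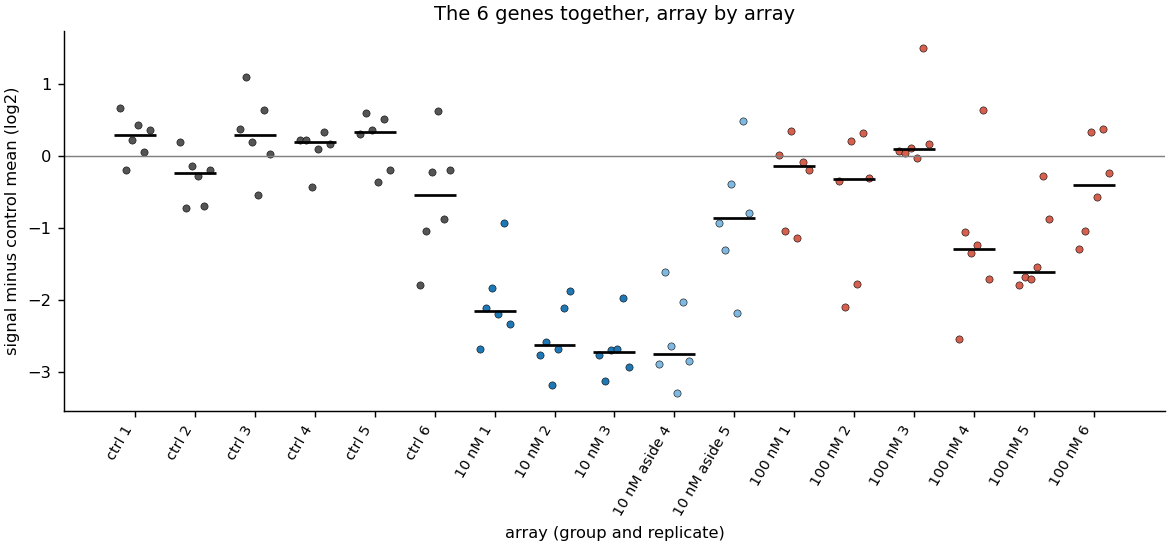
Signal minus control mean (log2, vertical axis) of the 6 genes in each of the 17 arrays, 1 point per gene on its highest-mean probe set and a bar at their median. The 10 nM arrays have medians of -2.15 to -2.73, and 100 nM replicates 4 and 5 (-1.29 and -1.61) sit between them and the controls.

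The set-aside arrays were not used to choose the genes, but the 6 controls they are set against were. A choice that favours probe sets reading high in those controls also favours low p-values here, so the p-values below are not independent of the choice. Replicate 4 had all 6 genes below every control, and replicate 5 had 3, Tmem26, Bod1l1 and Mgll. Over all measured probe sets these shares were 30.5% and 35.5%. Replicate 5 read higher than replicate 4 for each of the 6 genes, by 0.30 (Tmem26) to 2.52 (Rab27b), whereas 36.7% of all probe sets did and the median difference was -0.07. The median over the 6 genes was -2.74 in replicate 4 and -0.86 in replicate 5. Relative to the kept 10 nM arrays, replicate 5 was above all 3 for each of the 6 genes, as it was for 27.4% of all probe sets.

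Bod1l1 fell in the set-aside arrays, which read 2.11 and 3.23, by 2.74 ± 0.42 (SE) with a limma adjusted p of 0.000167. This call held in all 17 fits without 1 array and in all 6 other settings. Mgll on 1370831_at, at 2.97 and 5.04, fell by 1.82 ± 0.48 (SE, limma adjusted p = 0.00857), but without replicate 4 the difference was -0.78 (limma adjusted p = 0.309). Ppp1r9a, at 2.22 and 4.19, differed by -1.91 ± 0.72 (SE, limma adjusted p = 0.0494), and without replicate 4 by -0.93 (limma adjusted p = 0.529). Tmem26, at 6.51 and 6.81, differed by -1.46 ± 0.54 (SE, limma adjusted p = 0.0457), and without replicate 4 by -1.31 (limma adjusted p = 0.225). These last 2 calls lie at the threshold, and leaving out single arrays in turn ended them 12 and 11 times out of 17.

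Pi4k2a and Rab27b did not pass in the set-aside arrays. Pi4k2a, at 3.91 and 6.16, differed by -1.51 ± 0.61 (SE, limma adjusted p = 0.0635), and Rab27b on 1378107_at, at 3.96 and 6.48, by -0.77 ± 0.60 (SE, limma adjusted p = 0.344). Replicate 4 alone differed from control by -2.63 (limma adjusted p = 0.0111) and -2.03 (limma adjusted p = 0.0278) for these genes. Wherever a set-aside array stands alone, it is assumed to vary like the arrays of the other groups. Pi4k2a also passed without 100 nM replicate 5 (limma adjusted p = 0.04). Of the remaining probe sets, Mgll 1375247_at, at 2.95 and 3.25, fell by 0.45 ± 0.13 (SE, limma adjusted p = 0.0124). Its difference was -0.30 without replicate 4 (limma adjusted p = 0.205), -0.26 with arrays centred on their medians (limma adjusted p = 0.114) and -0.44 with array weights (limma adjusted p = 0.167). Mgll 1388644_at differed by -0.31 ± 0.30 (SE, limma adjusted p = 0.45) and Rab27b 1370122_at by 0.17 ± 0.15 (SE, limma adjusted p = 0.41).

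In all, 5 of the 9 measured probe sets passed as lower in the set-aside arrays, where 22.6% of all probe sets did. Both set-aside arrays lay below every control for 4 of the 9 (Tmem26, Bod1l1, Mgll 1370831_at and Mgll 1375247_at), as they did for 22.7% of all probe sets. Of all calls in this comparison 37.5% were higher, and 62.7% were after each array was centred on its median. These arrays also differed from the others in yield and in the 3′ signal of the dap spike, which was 12.45 and 12.49 against 9.04 to 11.30 in the other 15 arrays. The mean of 9 measured erythroid markers (of 13) was 9.33 and 10.61, against 7.38 to 8.89 in the kept 10 nM arrays and 7.60 to 9.86 in controls, and 2 of the 9 rose. In the same comparison 8 of 11 skeletal muscle markers, 6 of 10 gubernacular mesenchyme markers, 4 of 10 macrophage and leukocyte markers and 10 of 16 replication fork protection genes fell. The 3′ minus 5′ signal of Gapdh was 0.33 in replicate 5 and 0.12 in replicate 4, against -0.02 to 0.16 in the other 15 arrays. Their part in the values of the 6 genes was not tested.

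**Figure D4:**
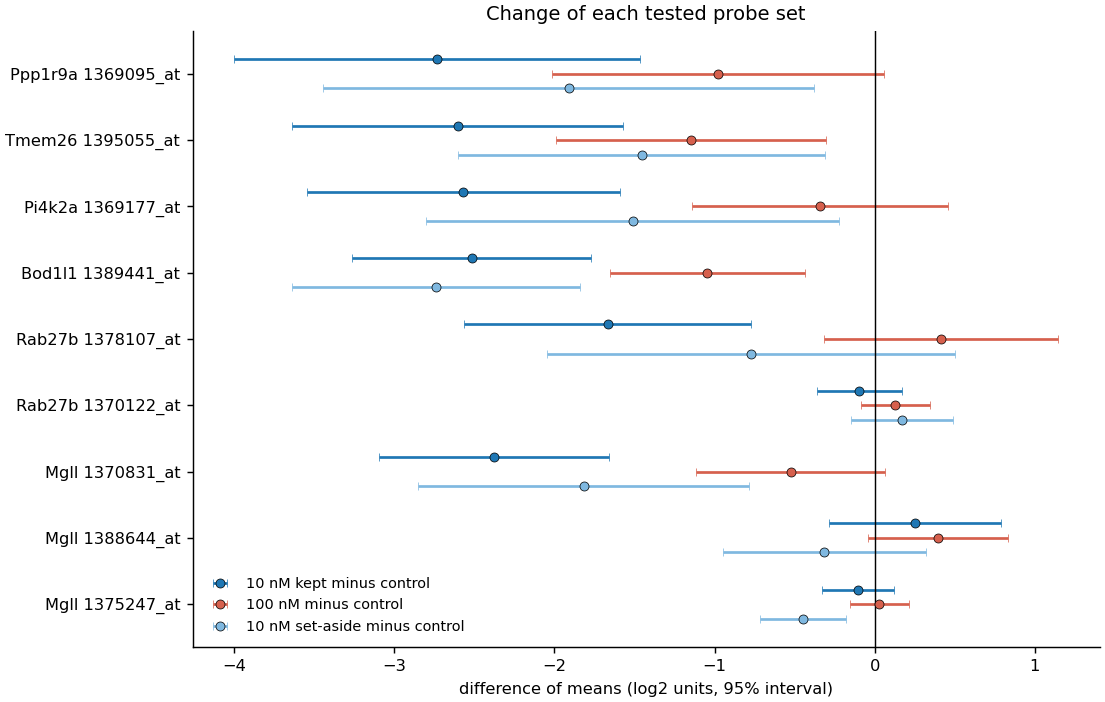
Difference from the control mean in log2 units (horizontal axis) with 95% intervals from limma for each of the 9 measured probe sets, in kept 10 nM, 100 nM and set-aside arrays. Mgll 1370831_at and Rab27b 1378107_at lie left of 0 at 10 nM, whereas Rab27b 1370122_at, Mgll 1388644_at and Mgll 1375247_at have 10 nM intervals that include 0.

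The pathways around the 6 genes were read from 11 lists, with 1 probe set per gene, that with the highest mean, and the median change of all genes at 10 nM was 0.06. Over all genes 3.13% passed as lower and 5.54% as higher, whereas over all measured probe sets 5.7% and 4.88% did. Of single-gene probe sets that passed at 10 nM, 38.8% of the lower and 85.7% of the higher stood for their gene. This choice thus leaves out more of the falls than of the rises. With the mean over a gene's probe sets instead, 1 gene passed in each of the AP-3 and BLOC-1, replication fork and actin lists. By that mean, 6 passed in the phosphoinositide list, 2 in the Rab27 list and 3 in the PP2A list. In the remaining lists the number that passed was the same, and the genes named below rest on the highest-mean probe set.

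Phosphoinositide metabolism, the pathway of Pi4k2a, had 4 of 38 measured genes that rose at 10 nM and 3 that fell, with a median of 0.12. The phosphatase gene Inpp4b fell by 0.82 ± 0.20 (SE, limma adjusted p = 0.0167). Pik3r1, the regulatory subunit of phosphatidylinositol 3-kinase, fell by 0.82 ± 0.21 (SE, limma adjusted p = 0.0217), and the class II kinase Pik3c2a fell by 0.70 ± 0.15 (SE, limma adjusted p = 0.00706). Pitpnm1, a phosphatidylinositol transfer protein, rose by 0.59 ± 0.17 (SE, limma adjusted p = 0.0345), and at 100 nM by 1.13 ± 0.14 (SE, limma adjusted p = 0.000147). The paralog Pi4k2b differed by 0.33 ± 0.19 (SE, limma adjusted p = 0.33). In limma, none of 13 AP-3 and BLOC-1 genes passed, and 2 had an unadjusted p under 0.05.

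Among 18 measured genes of the Rab27 machinery, 2 rose and 1 fell, with a median of 0.04. Myrip, which links Rab27 to myosin, rose by 1.52 ± 0.26 (SE, limma adjusted p = 0.00206). Myo5a, the myosin that carries Rab27-bound granules along actin, fell by 1.44 ± 0.20 (SE, limma adjusted p = 0.00069). At 100 nM Myrip was 1.70 ± 0.21 (SE) higher than control (limma adjusted p = 0.000197) and Myo5a was 0.65 ± 0.17 (SE) lower (limma adjusted p = 0.0238). Tbc1d10a, a GTPase-activating protein for Rab27, rose by 0.49 ± 0.15 (SE, limma adjusted p = 0.0479), and the paralog Rab27a differed by -0.19 ± 0.16 (SE, limma adjusted p = 0.501).

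For Mgll, none of 14 measured genes of endocannabinoid and monoacylglycerol metabolism and none of 9 of lipolysis passed at 10 nM in limma, with 2 and 0 at an unadjusted p under 0.05. Their medians were 0.10 and 0.10, close to that of all genes. Faah, the other main endocannabinoid hydrolase, had no measured probe set.

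Among 25 measured protein phosphatase 1 genes, the group of Ppp1r9a, 1 rose and 2 fell. Phactr1, which binds actin and the phosphatase, fell by 0.90 ± 0.20 (SE, limma adjusted p = 0.0111), and the myosin phosphatase subunit Ppp1r12a by 0.72 ± 0.18 (SE, limma adjusted p = 0.0179). Ppp1r13b rose by 0.38 ± 0.07 (SE, limma adjusted p = 0.00239). Among 19 actin and neurabin partners, the scaffold Dlg4 rose by 1.29 ± 0.34 (SE, limma adjusted p = 0.0258) and the Rac activator Tiam1 by 0.98 ± 0.23 (SE, limma adjusted p = 0.0141), and no gene fell. The paralog Ppp1r9b (spinophilin) differed by 0.46 ± 0.15 (SE, limma adjusted p = 0.0744).

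Beside Bod1l1, of 20 histone H3K4 methylation genes, only Kdm5b, a demethylase of that mark, passed, and it fell by 0.87 ± 0.16 (SE, limma adjusted p = 0.00303). None of 16 replication fork protection genes passed in limma, with 1 at an unadjusted p under 0.05. Of 12 PP2A genes, the inhibitor Ensa fell by 0.78 ± 0.15 (SE, limma adjusted p = 0.00372) and the B56 subunit Ppp2r5a rose by 0.45 ± 0.09 (SE, limma adjusted p = 0.00381). Bod1 differed by 0.14 ± 0.11 (SE, limma adjusted p = 0.493). Of 7 measured beige and brown adipocyte genes, set beside Tmem26, Ppargc1b, a coactivator of mitochondrial genes, fell by 0.87 ± 0.23 (SE, limma adjusted p = 0.0239) and the others did not pass. In 100 nM against 10 nM, no gene of the 11 lists passed in limma, with 0 to 7 per list at an unadjusted p under 0.05.

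**Figure D5:**
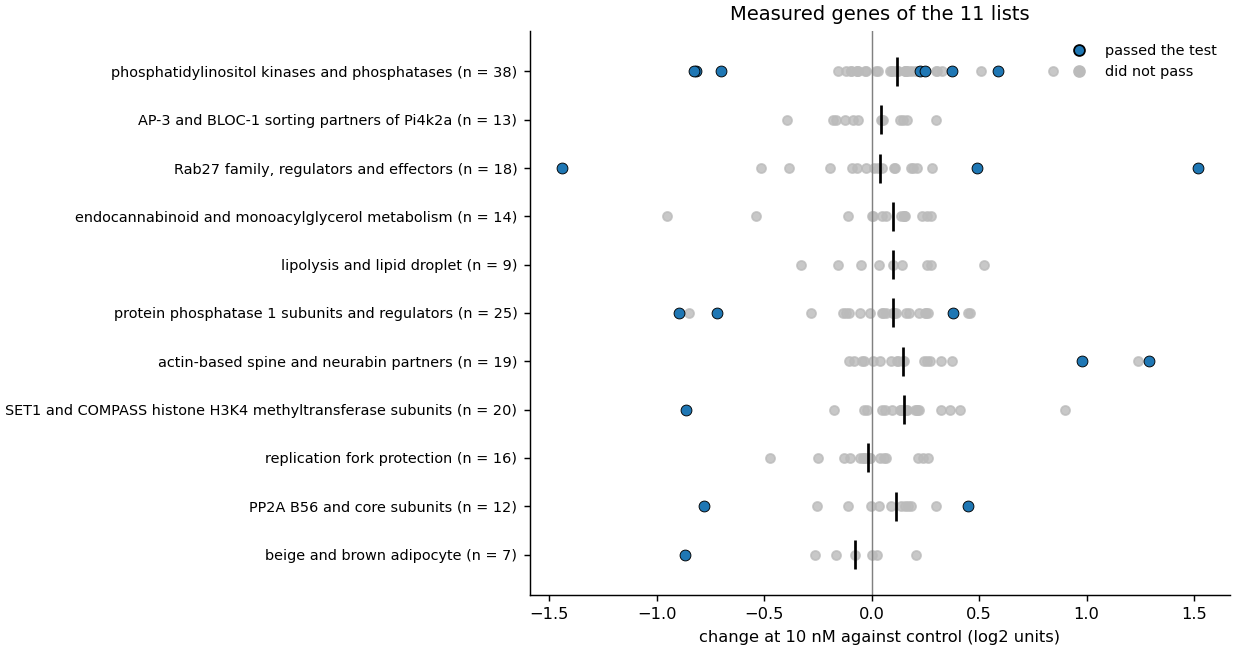
Change at 10 nM against control in log2 units (horizontal axis) of each measured gene in the 11 lists, with genes that passed in blue and a black bar at each list's median. Medians lie between -0.08 and 0.15, and the largest changes are Myrip (1.52) and Myo5a (-1.44) in the Rab27 list.

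Across the 15 kept arrays the 6 genes followed each other, with Pearson's r from 0.58 to 0.88 (median 0.77) over 15 pairs. The points share arrays and the groups that chose the genes, so this is a description only. By the same measure over 15 arrays, the genes most like Ppp1r9a were Bmpr1a (0.95), Tbc1d12 (0.95) and Tmed5 (0.94). Those most like Tmem26 were Rps6ka5 (0.91), Id2 (0.90) and Sema3d (0.90), and for Pi4k2a they were Ccnd2 (0.95), Eprs1 (0.95) and Xiap (0.95). Bod1l1 was followed by Luc7l (0.95), Kdm5b (0.94) and Ankrd11 (0.93), Rab27b by Kcnd2 (0.89), Cbfa2t3 (0.88) and Slc5a3 (0.87), and Mgll by Zfp91 (0.96), Rab14 (0.95) and Srp72 (0.95).

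The sign of other probe sets of the same gene was counted over all genes. Of 703 probe sets that passed as lower at 10 nM and had another measured probe set for the gene, 407 (57.9%) had another with the opposite sign, Mgll 1370831_at among them. The share was 36.0% for probe sets higher at 10 nM, and at 100 nM 21.1% for lower and 18.5% for higher ones. For 38.4% of the lower calls at 10 nM, another probe set passed as lower too. A probe set that does not change can take either sign, as Mgll 1388644_at may (0.25 ± 0.25 SE), so these shares do not show opposite changes. The count was chosen after seeing the data, and with all 17 arrays the share with an opposite sign was 23.2%.

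Cell type markers were checked beside these values. Of 13 markers of gubernacular mesenchyme 10 were measured, with array means of 12.61 to 12.84 in controls and 12.79 to 12.83 at 10 nM, and none passed at 10 nM in limma, nor had an unadjusted p under 0.05. Rxfp2, the Insl3 receptor, was among those with no measured probe set. Neuron markers, of a cell type rich in Ppp1r9a, had array means of 6.30 to 6.80 in controls and 6.46 to 6.65 at 10 nM, over 9 of 12 genes. Adipocyte markers, over 5 of 9 genes, ranged from 7.49 to 8.08 in controls and 7.89 to 8.28 at 10 nM, and megakaryocyte markers, over 3 of 11, from 6.18 to 6.56 and from 6.91 to 7.03. Of that last list Itgb3 rose by 1.75 ± 0.19 (SE, limma adjusted p = 0.000112). Pf4 differed by -0.02 ± 0.28 (SE) and Itga2b, at 2.55 in control, by 0.13 ± 0.08 (SE), and neither passed. The higher mean of this list thus came mainly from Itgb3. Some markers of other cell types also rose at 10 nM. They were the endothelial genes Cldn5 (by 1.60 ± 0.33 SE) and Kdr (by 0.78 ± 0.17 SE), 2 of 7 measured. The Schwann cell gene Ngfr (by 1.26 ± 0.18 SE), 1 of 3, and the adipocyte gene Cfd (by 1.49 ± 0.30 SE), 1 of 5, rose too. The remaining measured genes of these lists did not pass and lay on both sides of 0 in each list. They ranged from Emcn (-0.63 ± 0.315 SE) to Cebpa (0.91 ± 0.56 SE). Of 6 smooth muscle genes, Myh11 rose by 2.65 ± 0.71 (SE) while Tagln fell by 0.43 ± 0.12 (SE) and Mylk fell by 0.35 ± 0.09 (SE). In bulk tissue, fewer cells of a type and less RNA per cell cannot be told apart, and the part of cell composition in the 6 genes was not tested.

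Replicates 1, 2 and 6 were also compared apart from replicates 3, 4 and 5, a division that no label names as a batch. No values that show such a division are given here. Within replicates 1, 2 and 6 the 10 nM difference from control was -2.41 for Ppp1r9a, -1.70 for Tmem26, -2.47 for Pi4k2a, -2.70 for Bod1l1, -1.02 for Rab27b on 1378107_at and -2.10 for Mgll on 1370831_at. Within replicates 3, 4 and 5, with a single 10 nM array, the same differences were -3.07, -3.78, -2.73, -2.42, -2.47 and -2.94. All 6 were negative in both sets, which was fixed beforehand, since every kept 10 nM array lay below every control on these probe sets. The differences of Tmem26 and Rab27b varied most between the sets. Rab27b lost its call at 10 nM without 10 nM replicate 2 (-1.45) or replicate 3 (-1.52), with the set-aside arrays counted as 10 nM (-1.31), with no filter (-1.67) and within each set of replicates. The calls of Ppp1r9a and Tmem26 were lost within each set of replicates, and those of Pi4k2a, Bod1l1 and Mgll within replicates 3, 4 and 5.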

How the data were processed

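The values are log2 expression per probe set, made and deposited by the authors with GCRMA, per the submitters' processing notes. GCRMA corrects background from probe sequence, normalizes arrays to each other and summarises probes. The GCRMA version and whether replicates 4 and 5 at 10 nM were normalized jointly with the others are not given. The log base is not stated, and the values have the range of log2. The number of arrays, and background at low signal, limit the precision. RIN was 10 for 15 arrays and is not given for 10 nM replicates 1 and 2.

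Control probe sets (57) were left out, and 18938 probe sets above 2.28, the 40th percentile of the 15 kept arrays, in at least 3 arrays were tested. Of all probe sets 20832 carried 1 gene, 436 several and 9831 none that was used here. The groups were fitted together in limma 3.58.1 (R 4.3.3, lmFit and eBayes, 2-sided), with the set-aside arrays as a further group in a separate fit of 17 arrays. The limma code was tested on simulated data. P-values measure the spread between biological replicates, as the labels call them.

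All probe sets of the 6 genes are reported. From each pathway list up to 4 genes are named, those with the largest changes among the ones past the threshold at 10 nM, plus the closest paralog of each gene, and 3 genes per likeness. Genes named beyond this rule (marker genes, Sema3d, Ano3, Rab11fip2) were chosen after their values were seen. The members and lists were chosen with earlier results of these data known. Alternatives were other filters, normalizations, variance models, array weights, arrays left out, replicate sets and a replicate block. Probe positions within transcripts were not used here.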

Additional observations from a re-analysis of the deposited data

Results flagged for a closer look

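Within-group spread was checked in 18 groups of 6 arrays (control and 100 nM, 9 measured probe sets), and 3 held an array far from the other 5, where chance gives about 1 in 20 for untied values. For Ppp1r9a the lowest control, replicate 6, read 3.33 and the next 5.31, a gap of 0.808 of the range. For Rab27b 1370122_at the highest control read 2.87 and the other 5 read 2.76, a gap of 1.0 of the range, although the difference itself is 0.11 on the log2 scale or less. For Mgll 1375247_at the lowest 100 nM array read 3.34 and the next 3.63, a gap of 0.997 of the range. In these last 2 groups the other 5 arrays are tied or nearly tied, so any differing array gives a gap near the whole range and the chance rate does not apply.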

How the results depend on the processing

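The difference at 10 nM kept its sign for the 6 main probe sets under every alternative run, between -3.78 and -1.02. These probe sets were chosen on this contrast, and every kept 10 nM array lay below every control. Leaving out arrays or taking subsets of the kept arrays could therefore not change the sign, so nothing is read from it. The total of calls at 10 nM against control, 2004, became 4208 with array weights, 559 with replicates 1, 2 and 6 only, 754 with replicates 3, 4 and 5 only, and 1020 to 2495 without 1 array (1020 without 10 nM replicate 3, 1256 without 10 nM replicate 1). At 100 nM against control, 2065 became 1008 with all 17 arrays, 200 with replicates 1, 2 and 6 only, and 1442 to 2616 without 1 array. Between the doses, 271 became 22 with no filter, 1199 with array weights, 3 with only the 2 groups, 134 and 159 within the replicate sets, 531 with the division as a term, and 3 to 619 without 1 array (3 without 10 nM replicate 3, 56 without 100 nM replicate 2, 619 without 100 nM replicate 5). For the set-aside arrays, 6853 became 3940 with array weights. Same-numbered samples did not all correlate above 0.1 (control with 100 nM 0.0068 to 0.199, control with 10 nM -0.0433 to 0.1312). For 10 nM with 100 nM the correlations were -0.0708 to 0.1864. These values do not settle whether same-numbered samples share more than a number, and the main fits did not pair them. With the replicate block the counts were 1708, 1781, 429 and 5702 in the same order of comparisons. Ppp1r9a, Tmem26 and Mgll 1370831_at in the set-aside arrays had limma adjusted p of 0.1, 0.067 and 0.0594 with the block. The causes of these shifts were not tested.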
